A study of Arabidopsis thaliana with 18 samples.

Results

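The 10 genes of tryptophan-derived defence metabolism in Arabidopsis leaves described here were chosen as named members of the camalexin and indole glucosinolate pathways. The choice was made with earlier results of these data known. All 10 members were found among the 33602 loci of the count table by locus identifier, and all 10 passed the filter on low counts in every comparison. They were *ASA1* (AT5G05730) and *TSA1* (AT3G54640) of tryptophan synthesis, *CYP79B2* (AT4G39950) and *CYP79B3* (AT2G22330), *CYP71A12* (AT2G30750), *CYP71A13* (AT2G30770), *PAD3* (AT3G26830), *GGP1* (AT4G30530), *CYP81F2* (AT5G57220) and the regulator *MYB51* (AT1G18570).

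Leaf mRNA of 3 genotypes of the Col-0 background was sequenced in 18 libraries, with 3 libraries in each of 6 groups and the leaves of 3 plants pooled in each library. The *fc2 pub4* double mutant (fc2-1 pub4-6) and the *fc2* single mutant (fc2-1) share a T-DNA insertion in *FC2*, the gene of a plastid ferrochelatase, and the double mutant also carries a point mutation in *PUB4*, the gene of an E3 ubiquitin ligase. The third genotype was wild type (wt), and the *pub4* single mutant was not analysed here, so that effects of pub4-6 were seen only on the *fc2* background. Each genotype either spent 17 days in constant (24 h) light and then 2 days in cycling light of 16 h light and 8 h dark, or stayed in 24 h light, and total leaf tissue was taken 1 h after subjective dawn at 19 days. These days are those of the sample labels, and the study's methods text gives a slightly younger age. In cycling light *fc2* plants are known to accumulate protoporphyrin IX and to make singlet oxygen in the chloroplast at dawn, and *pub4* is known to block the cell death that follows.

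Tryptophan is made from chorismate in the plastid and is the starting point of several defence compounds of the mustard family. The cytochromes P450 CYP79B2 and CYP79B3 turn it into indole-3-acetaldoxime, the branch point of both pathways. In the camalexin branch, CYP71A12 and CYP71A13 dehydrate the aldoxime to indole-3-acetonitrile, a glutathione conjugate is formed and trimmed by peptidases such as GGP1, and PAD3 (CYP71B15) carries out the last steps to camalexin, the main phytoalexin of Arabidopsis. In the other branch the aldoxime enters the core pathway of indole glucosinolates, which also uses GGP1, and CYP81F2 hydroxylates the finished glucosinolate on its indole ring. MYB51 is a transcription factor that activates the genes of the glucosinolate branch.

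The members include 2 pairs of paralogs, whose sequences bear on how far reads of 50 bases can tell them apart. *CYP71A12* and *CYP71A13* lie 8.54 kb from each other on chromosome 2, 145 kb and 156 kb from *FC2*. Their coding sequences are identical at 90.4% of 1494 bases, and the longest identical run is 59 bases. The pair is shown over the 60 coding bases that are most alike (chr2:13100558-13100617 and chr2:13111148-13111207, minus strand, TAIR10.1 reference) and the 60 that are least alike (chr2:13100472-13100531 and chr2:13111062-13111121, minus strand), with the bases that differ in capitals.
CYP71A12, most alike: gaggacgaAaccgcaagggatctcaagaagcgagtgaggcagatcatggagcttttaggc
CYP71A13, most alike: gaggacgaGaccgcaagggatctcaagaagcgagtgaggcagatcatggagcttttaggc
CYP71A12, least alike: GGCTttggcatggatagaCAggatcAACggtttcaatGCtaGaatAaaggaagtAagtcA
CYP71A13, least alike: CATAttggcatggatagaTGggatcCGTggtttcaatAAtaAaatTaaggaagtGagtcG
The first window holds 1 mismatch and the second 15. Of the 50-base stretches of *CYP71A12*, 2.70% occur elsewhere in the genome, as do 0.692% of those of *CYP71A13*, and none of those of the other 8 members. Of the stretches of *CYP71A12*, 0.692% occur in the coding sequence of *CYP71A13*, so most of its repeated stretches match other loci. Reads from the identical stretch could have been given to either gene, and reads from the others to those loci. How the authors treated such reads is not given in the sources used here.

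*CYP79B2* (chromosome 4) and *CYP79B3* (chromosome 2, 354 kb from *PUB4*) are identical at 78.1% of their aligned coding bases and share no stretch of 50 bases. Their most alike 60 coding bases (chr4:18526655-18526714 and chr2:9490354-9490413, plus strand, TAIR10.1) are shown because *CYP79B2* was called between *fc2* and wt in cycling light and *CYP79B3* was not, with the 2 mismatches in capitals.
CYP79B2, most alike: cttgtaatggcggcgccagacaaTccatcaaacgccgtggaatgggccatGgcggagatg
CYP79B3, most alike: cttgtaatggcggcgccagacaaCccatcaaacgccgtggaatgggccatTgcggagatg
Exons of an opposite-strand gene covered 22.1% of the exonic length of *CYP71A13* and 8.80% of that of *ASA1*, and none of that of the other 8 members. The kit marks strand, but whether the counting used it is not given in the sources used here, so these 2 genes carry that uncertainty.

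Upstream sequence was searched for the W box, the binding motif of WRKY transcription factors such as WRKY33 (TTGACC or TTGACT, on both strands), in the 250 bases before each annotated start. A W box was present in 4 of the 10 members, namely *TSA1* and *CYP81F2* with 2 each and *ASA1* and *GGP1* with 1 each, while 28.4% of the 27443 windows of protein-coding genes held at least 1 and 6.18% held 2 or more. The windows of *TSA1* (chr3:20225524-20225773, minus strand), *CYP81F2* (chr5:23187590-23187839, plus strand) and *PAD3* (chr3:9887667-9887916, plus strand) of the TAIR10.1 reference are shown, since the first 2 hold the most W boxes (capitals, read on the gene's strand as GGTCAA or AGTCAA) and *PAD3* holds none and had the largest log2FC of the members.
TSA1: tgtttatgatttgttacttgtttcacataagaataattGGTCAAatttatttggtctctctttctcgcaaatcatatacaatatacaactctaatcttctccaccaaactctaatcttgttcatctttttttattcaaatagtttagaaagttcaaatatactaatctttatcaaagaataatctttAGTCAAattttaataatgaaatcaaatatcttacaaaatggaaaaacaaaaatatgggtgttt
CYP81F2: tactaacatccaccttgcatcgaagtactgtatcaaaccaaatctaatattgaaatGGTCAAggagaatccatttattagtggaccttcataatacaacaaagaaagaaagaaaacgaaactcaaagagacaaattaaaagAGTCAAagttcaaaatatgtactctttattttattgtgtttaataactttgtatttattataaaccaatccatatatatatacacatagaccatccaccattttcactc
PAD3: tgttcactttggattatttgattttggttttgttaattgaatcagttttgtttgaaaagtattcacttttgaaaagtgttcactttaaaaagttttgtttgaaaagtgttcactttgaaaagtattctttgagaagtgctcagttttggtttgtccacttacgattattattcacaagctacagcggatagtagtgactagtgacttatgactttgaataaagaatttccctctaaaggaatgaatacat
The G box CACGTG, a motif of bHLH and bZIP factors, was in the window of 0 of 10 members and of 6.49% of all windows. For *CYP71A12* and *CYP71A13* the annotated start is the coding start, so their windows may not be promoters.

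Total counts were between 26994499 and 39382316 per library. *FC2* was lower in every mutant group than in wt of the same light (log2FC between -2.25 and -1.45), which fits the labels of all 12 mutant libraries for fc2-1, while a point mutation such as pub4-6 cannot be checked by counts. Leaf genes (*RBCS1A*, *RCA*, *CA1* and *LHCB1.1*) were high in all 18 libraries, and 4 root endodermis genes summed to at most 0.927 CPM. The summed level of 7 floral identity genes was 19.1 to 44.9 CPM in *fc2* in 24 h light and 3.19 to 28.0 CPM in the other 15 libraries. In the *fc2 pub4* group in cycling light, replicate 2 stood apart from its sister libraries, being the highest of the 3 for 10 of 10 members, at 1.29 (*GGP1*) to 2.24 times (*CYP71A12*) the mean of the other 2, and values without it are given below. It was picked by the values of these same members, so calls without it are only a description. Counts of calls without a library stand without the share of all genes in the same fit, which was not taken. In *fc2 pub4* in 24 h light replicate 2 was likewise the highest for every member but *GGP1*. There *PAD3* had 49.6 CPM, against 25.7 and 33.1 CPM in its sister libraries. Values are CPM (counts scaled to the same library total) scaled by TMM over the 18 libraries, with the SD over 3 libraries, and a gene was called at an adjusted p (padj) below 0.01 in edgeR's quasi-likelihood test, with padj taken over all genes tested. The study's stricter cutoff for a differentially expressed gene (DEG) also asked for a log2FC above 1.5 in size. Replicates were separate pools of plants. Since this is bulk tissue, fewer cells of a type and less RNA per cell cannot be told apart.

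**Figure D1:**
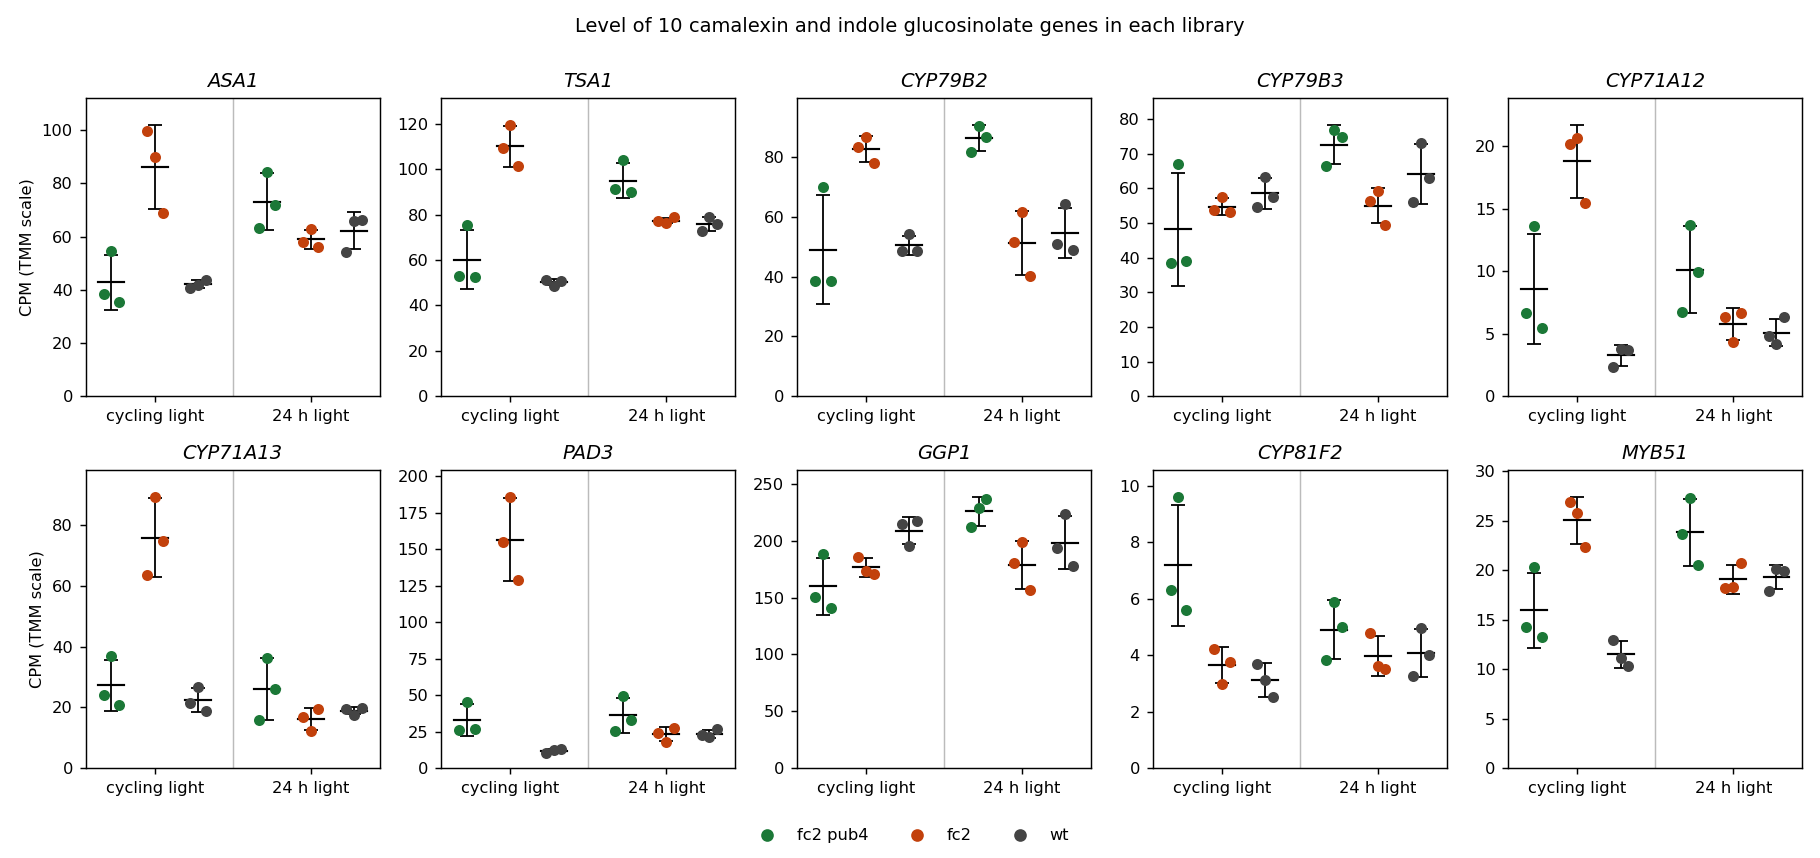
Level of the 10 members in each library, in CPM on the TMM scale from 0, with *fc2 pub4*, *fc2* and wt libraries as points under cycling light and 24 h light, and the mean with its SD as a line and bars (n = 3). *PAD3* stood at 129 to 186 CPM in *fc2* in cycling light, above all other libraries, while *CYP79B3* and *GGP1* overlapped or lay below wt there.

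The first comparison asked what the *fc2* mutation did in cycling light. Of the 10 members, 7 were higher in *fc2* than in wt and none lower, against 21.8% of the 20122 genes tested that were higher and 42.8% that were called in either direction. Since members were chosen with earlier results of these data known, counts of members beside shares of all genes are only a description, here and below. The camalexin genes *PAD3*, *CYP71A12* and *CYP71A13* also passed the DEG cutoff, which 5.79% of genes passed upward. *TSA1*, *MYB51*, *ASA1* and *CYP79B2* rose by less, while *CYP79B3*, *GGP1* and *CYP81F2* were not called. The median log2FC of the members was 1.09, beside -0.00 over all genes tested. Libraries of the 2 groups did not overlap for 7 members that were higher and 1 that was lower. Of all genes tested, 31.4% were higher and 33.3% lower without overlap, so lack of overlap by itself is common here.

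Of the tryptophan genes, *ASA1*, the catalytic alpha subunit of anthranilate synthase at the pathway's first step, had 99.4, 89.9 and 68.7 CPM in *fc2* in cycling light, against 40.7, 41.7 and 43.8 CPM in wt in cycling light. All *fc2* libraries lay above all wt libraries (log2FC 1.04 ± 0.12 SE, padj = 8.7e-05 by edgeR). *TSA1*, the alpha subunit of tryptophan synthase at the pathway's end, had 109, 119 and 101 CPM in *fc2*, against 51.3, 48.7 and 51.0 CPM in wt. Again the groups did not overlap (log2FC 1.14 ± 0.07 SE, padj = 4.3e-06 by edgeR). In the same light the double mutant held *ASA1* at 38.5, 54.7 and 35.5 CPM and *TSA1* at 52.8, 75.2 and 52.4 CPM, which overlapped wt for *ASA1* and lay just above it for *TSA1*.

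At the branch point one paralog was called and the other was not. *CYP79B2* had 83.2, 86.6 and 78.1 CPM in *fc2* in cycling light, against 48.5, 54.1 and 48.7 CPM in wt, with no overlap (log2FC 0.72 ± 0.07 SE, padj = 3.0e-05 by edgeR). *CYP79B3* had 53.6, 57.5 and 53.2 CPM in *fc2*, against 54.7, 63.4 and 57.6 CPM in wt, and these overlapped (log2FC -0.09 ± 0.07 SE, padj = 0.32 by edgeR). The ratio of *CYP79B2* to *CYP79B3* within a library was 1.51 ± 0.04 in *fc2* and 0.86 ± 0.02 in wt (SD, n = 3 each; two-sided exact permutation p = 0.1, the smallest that 3 against 3 allows). This ratio, chosen after the values were seen like the other ratios below, was between 0.774 and 1.23 in the 15 libraries outside *fc2* in cycling light.

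The 3 camalexin P450 genes had the largest log2FC of the members. *PAD3* had 155, 186 and 129 CPM in *fc2* in cycling light, against 10.05, 12.6 and 12.8 CPM in wt, and its lowest *fc2* library was far above its highest wt library. The mean was 13.2-fold higher (log2FC 3.74 ± 0.15 SE, padj = 9.3e-07 by edgeR), and 98.8% of the genes tested had a lower log2FC. *CYP71A12* had 20.2, 20.7 and 15.5 CPM in *fc2*, against 2.33, 3.78 and 3.71 CPM in wt (log2FC 2.53 ± 0.18 SE, padj = 9.0e-06 by edgeR). *CYP71A13* had 63.5, 89.4 and 74.8 CPM in *fc2*, against 21.5, 26.8 and 18.9 CPM in wt (log2FC 1.78 ± 0.15 SE, padj = 1.8e-05 by edgeR). Neither P450 gene overlapped between *fc2* and wt. *CYP71A13* was the more abundant of the pair, the ratio of its CPM to that of *CYP71A12* being 4.10 ± 0.87 in *fc2* and 7.13 ± 2.07 in wt (SD, n = 3 each; two-sided exact permutation p = 0.1, the smallest possible). In 24 h light this ratio was 2.81 ± 0.14 in *fc2* and 3.78 ± 0.59 in wt, so wt in cycling light stood highest. Its value rests on 63, 91 and 135 counts of *CYP71A12*.

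*GGP1*, which serves both branches, had 186, 173 and 171 CPM in *fc2* in cycling light, against 214, 195 and 217 CPM in wt. The libraries did not overlap, but the difference missed the threshold in edgeR (log2FC -0.23 ± 0.07 SE, padj = 0.013), whereas DESeq2 gave padj = 0.0073. *CYP81F2* had 4.22, 2.96 and 3.74 CPM in *fc2*, against 3.70, 3.11 and 2.50 CPM in wt, and overlapped (log2FC 0.25 ± 0.21 SE, padj = 0.33 by edgeR). This gene was the least abundant member, with 75 to 259 counts in a library. *MYB51* had 26.9, 25.8 and 22.4 CPM in *fc2*, against 12.9, 11.2 and 10.3 CPM in wt, without overlap (log2FC 1.14 ± 0.11 SE, padj = 3.5e-05 by edgeR).

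The calls of the 7 genes held whichever library was left out. Leaf marker genes moved in the same comparison: all 4 of 4 were lower in *fc2*, with a summed level of 16881 to 21605 CPM in *fc2* and 42056 to 44990 CPM in wt, while floral genes summed to 10.11 to 28.0 CPM in *fc2* and 8.28 to 23.0 CPM in wt, and the part of either in the result was not tested. Scaling by library size alone shifted the median of all genes to 0.23 in this comparison, and the 7 genes stayed called.

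Across genes, levels can be compared only per length. Per kb of exon, *GGP1* was the highest of the 10 members in every group (132 to 186 CPM per kb), and *CYP81F2* the lowest (1.76 to 4.06 CPM per kb). In *fc2* in cycling light *PAD3* came next after *GGP1* at 88.1 CPM per kb, followed by *TSA1* at 75.6 and *CYP71A13* at 50.8. In wt in cycling light *TSA1* (34.6), *CYP79B3* (26.1), *CYP79B2* (23.6), *ASA1* (19.1) and *CYP71A13* (14.97) all stood above *PAD3* (6.65 CPM per kb). Within a library, the ratio of *PAD3* to *CYP79B2* in CPM was 1.65 to 2.15 in *fc2* in cycling light and 0.207 to 0.264 in wt in cycling light. The summed level of the 10 members was 717 to 851 CPM in *fc2* and 460 to 467 CPM in wt in cycling light.

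In 24 h light, where *fc2* plants are known to look healthy, none of the 10 members was called between *fc2* and wt by edgeR, none had an unadjusted p below 0.05 and none was called by DESeq2, with 0.315% of 19664 genes called. *PAD3* had 24.1, 17.8 and 27.6 CPM in *fc2* in 24 h light, against 22.9, 21.3 and 26.5 CPM in wt in 24 h light, and the log2FC of the 10 members lay between -0.22 and 0.18. Every member overlapped between the groups, where 11.7% of all genes did not overlap and were higher and 9.28% did not overlap and were lower. Floral genes summed to 19.1 to 44.9 CPM in *fc2* and 4.04 to 8.24 CPM in wt in 24 h light, and what this did to the members was not tested. The interaction of genotype and light, which tests whether the *fc2* effect differed between light conditions, was called for 7 of 10 members, all with a larger log2FC in cycling light, against 15.3% of 20411 genes in that direction and 31.3% in either. It was 3.75 ± 0.23 (SE, log2) for *PAD3* (padj = 2.8e-07 by edgeR) and 0.12 ± 0.13 for *CYP79B3* (padj = 0.49).

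**Figure D2:**
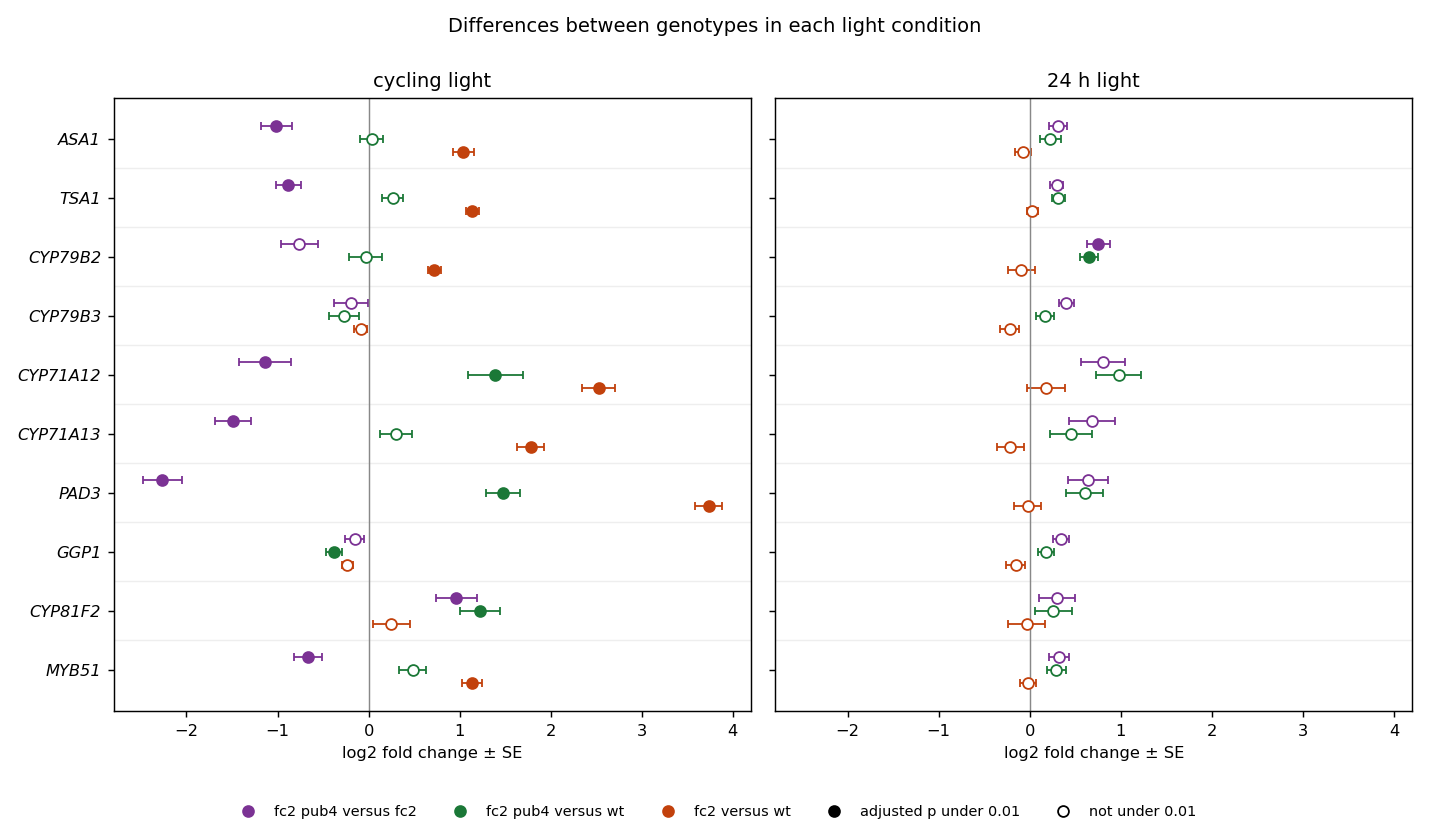
log2 fold change with its SE (edgeR) of the 10 members for *fc2 pub4* against *fc2*, *fc2 pub4* against wt and *fc2* against wt, in cycling light (left) and 24 h light (right), with filled points where the adjusted p was under 0.01. In cycling light *PAD3* was at -2.27 for *fc2 pub4* against *fc2* and 3.74 for *fc2* against wt, while in 24 h light the 10 members stayed between -0.22 and 0.98.

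The double mutant was compared with *fc2* to see which of these levels differed with pub4-6. The study describes this allele as semi-dominant and states that null *pub4* alleles do not block singlet oxygen signalling. The differences are therefore those of this allele, and loss of PUB4 was not tested. In cycling light 6 of 10 members stood lower in *fc2 pub4* libraries than in those of *fc2*, against 19.0% of the 20116 genes tested, and *CYP81F2* was higher, against 17.4% (36.4% in either direction). Both comparisons share the *fc2* libraries, so the *fc2* values behind the 2 results are the same ones. Without overlap of the libraries, 7 members were lower and 1 higher, against 29.2% and 31% of all genes. *PAD3* had 26.1, 45.3 and 26.9 CPM in *fc2 pub4*, against 155, 186 and 129 CPM in *fc2*, and every double mutant library was below every *fc2* library (log2FC -2.27 ± 0.21 SE, padj = 3.7e-05 by edgeR). By edgeR *PAD3* was the only member past the DEG cutoff, which 4.17% of genes passed downward. Without replicate 2 of *fc2 pub4* its log2FC was -2.57. By DESeq2 *CYP71A13* passed the cutoff too (log2FC -1.501, padj = 1.9e-06).

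*CYP71A13* had 24.0, 36.8 and 20.9 CPM in *fc2 pub4*, against 63.5, 89.4 and 74.8 CPM in *fc2* (log2FC -1.49 ± 0.20 SE, padj = 2.5e-04 by edgeR). *CYP71A12* had 6.65, 13.6 and 5.49 CPM in *fc2 pub4*, against 20.2, 20.7 and 15.5 CPM in *fc2* (log2FC -1.14 ± 0.28 SE, padj = 0.0082 by edgeR). Neither gene overlapped between the groups, though the call of *CYP71A12* was lost on leaving out 4 of the 6 libraries in turn and by DESeq2 (padj = 0.016). *ASA1* (log2FC -1.01 ± 0.17 SE), *TSA1* (-0.88 ± 0.14 SE) and *MYB51* (-0.66 ± 0.15 SE) were lower by less, with padj of 0.0011, 5.6e-04 and 0.0055 by edgeR. *MYB51* had 14.3, 20.3 and 13.2 CPM in *fc2 pub4*, against 26.9, 25.8 and 22.4 CPM in *fc2*, and its call was lost on leaving out 4 of the 6 libraries.

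*CYP79B2* had 38.5, 70.0 and 38.6 CPM in *fc2 pub4* in cycling light, against 83.2, 86.6 and 78.1 CPM in *fc2*. It did not overlap but missed the threshold (log2FC -0.76 ± 0.20 SE, padj = 0.011 by edgeR). Without replicate 2 of *fc2 pub4* it was called (log2FC -1.11, padj = 4.2e-05), as was *CYP79B3* (log2FC -0.50, padj = 8.7e-04), and 8 of 10 members were then called, all lower. That library was left out because its values for these members were high, so lower means without it follow from the choice. The share of all genes called in that fit was not taken. *CYP79B3* had 38.6, 67.0 and 39.1 CPM in *fc2 pub4*, against 53.6, 57.5 and 53.2 CPM in *fc2*, so that replicate 2 lay above all *fc2* libraries and the other 2 below them.

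*CYP81F2*, by contrast, was higher. It had 6.31, 9.60 and 5.603 CPM in *fc2 pub4* in cycling light, against 4.22, 2.96 and 3.74 CPM in *fc2* and 3.70, 3.11 and 2.50 CPM in wt. The double mutant was above both other genotypes in every library (against *fc2*, log2FC 0.96 ± 0.22 SE, padj = 0.0055; against wt, 1.23 ± 0.22 SE, padj = 0.0014, both by edgeR). The difference from *fc2* was called without only 3 of the 6 libraries, being lost without replicate 2 of *fc2 pub4* (log2FC 0.70, padj = 0.016), replicate 1 of *fc2 pub4* (1.05, padj = 0.013) or replicate 2 of *fc2* (0.83, padj = 0.024). The difference from wt was called without replicate 2 of *fc2 pub4* (log2FC 0.96, padj = 0.0016).

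Against wt, *fc2 pub4* in cycling light had 3 of 10 members higher (6.32% of 19658 genes) and *GGP1* lower (8.02%; 14.3% in either direction). *PAD3* had 26.1, 45.3 and 26.9 CPM in *fc2 pub4*, against 10.05, 12.6 and 12.8 CPM in wt, a 2.77-fold higher mean without overlap (log2FC 1.47 ± 0.19 SE, padj = 1.3e-04 by edgeR). *CYP71A12* (log2FC 1.39 ± 0.30 SE, padj = 0.0053) was also higher, but its call was kept without only 3 of the 6 libraries and lost by DESeq2 (padj = 0.018). *GGP1* had 151, 188 and 141 CPM in *fc2 pub4*, against 214, 195 and 217 CPM in wt (log2FC -0.38 ± 0.09 SE, padj = 0.0092 by edgeR), and this call was kept on leaving out only 1 of the 6 libraries and lost by DESeq2 (padj = 0.036). Without overlap of the libraries, 5 members were higher and 1 lower than in wt, against 19.1% and 21.3% of all genes. *TSA1* (0.26 ± 0.11 SE, padj = 0.12), *MYB51* (0.48 ± 0.15 SE, padj = 0.035), *ASA1* (0.03 ± 0.13 SE, padj = 0.88), *CYP71A13* (0.30 ± 0.18 SE, padj = 0.25), *CYP79B2* (-0.03 ± 0.18 SE, padj = 0.92) and *CYP79B3* (-0.27 ± 0.17 SE, padj = 0.26) were not called. Without replicate 2 of *fc2 pub4*, *CYP79B2* (log2FC -0.38, padj = 4.7e-04) and *CYP79B3* (-0.59, padj = 1.3e-05) were lower than in wt and 6 members were called, whereas leaving out any wt library left 2. The share of all genes called in these fits was not taken. In the same comparison 2 of 4 leaf genes and 2 of 7 floral genes were lower, and the floral genes summed to 3.19 to 8.00 CPM in *fc2 pub4* and 8.28 to 23.0 CPM in wt without overlap; the part of either was not tested.

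In order of group means, *PAD3* stood at 157 ± 28.5 CPM in *fc2* in cycling light, 36.1 ± 12.2 in *fc2 pub4* in 24 h light, 32.8 ± 10.8 in *fc2 pub4* in cycling light, 23.6 ± 2.66 in wt in 24 h light, 23.2 ± 4.95 in *fc2* in 24 h light and 11.8 ± 1.54 in wt in cycling light (SD, n = 3 each). Among the 4 middle groups, *fc2 pub4* in 24 h and in cycling light, and *fc2* and wt in 24 h light, differed by less than the SD of either group, while *fc2 pub4* in cycling light and wt in 24 h light differed by more than the SD of wt and less than that of *fc2 pub4*. The ratio of *PAD3* to *CYP79B2* was 0.675 ± 0.026 in *fc2 pub4* in cycling light, 1.89 ± 0.25 in *fc2* and 0.235 ± 0.028 in wt (SD, n = 3 each; two-sided exact permutation p = 0.1 for each pair, the smallest possible). Of the leaf genes 4 of 4 were higher in *fc2 pub4* than in *fc2* in cycling light, with a summed level of 38043 to 39072 CPM in *fc2 pub4* and 16881 to 21605 CPM in *fc2*, and their part in these differences was not tested.

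In 24 h light the double mutant had higher means than *fc2* for all 10 members (log2FC 0.30 to 0.81), but 1 of 10 was called, against 0.897% of 19851 genes higher and 1.49% called in either direction. That gene was *CYP79B2*, with 81.6, 90.2 and 86.8 CPM in *fc2 pub4*, against 51.7, 61.6 and 40.3 CPM in *fc2* and 50.8, 64.2 and 48.9 CPM in wt. Its *fc2 pub4* libraries lay above all others of that light (log2FC 0.75 ± 0.13 SE, padj = 0.0095 against *fc2*; 0.65 ± 0.10 SE, padj = 0.0092 against wt, both by edgeR). Against wt too it was the only member called, beside 0.409% of 19782 genes higher and 0.763% in either direction. Both calls stood close to the threshold and were kept on leaving out only 1 of 6 libraries. DESeq2 called 4 members against *fc2* and 3 against wt, and its share of all genes was not taken. *CYP79B3* had 66.3, 76.8 and 74.8 CPM in *fc2 pub4*, against 56.3, 59.2 and 49.4 CPM in *fc2*, which did not overlap but was not called by edgeR (padj = 0.025). Against *fc2*, 9 of 10 members had an unadjusted p below 0.05, beside 4418 of 19851 genes, and 10070 genes had a log2FC above 0. Without overlap, 6 members were higher than in *fc2* (13.9% of all genes) and 4 higher than in wt (13.8%). Floral genes, at 7.11 to 8.99 CPM in *fc2 pub4* and 19.1 to 44.9 CPM in *fc2* in 24 h light, differed in the same comparison, and their part was not tested.

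The interaction of genotype and light between *fc2 pub4* and *fc2* was called for 7 of 10 members, all with a lower log2FC in cycling light (14.2% of 20541 genes in that direction, 14.1% in the other and 28.3% in either). It was -2.88 ± 0.35 (SE, log2) for *PAD3* and -1.496 ± 0.27 for *CYP79B2* (padj = 2.2e-05 and 5.2e-04 by edgeR). Between *fc2 pub4* and wt it was called by edgeR for 0 of 10 members, beside 0.248% of 20185 genes. DESeq2 called 1 member (*GGP1*), and its share of all genes was not taken. By edgeR 4 members had an unadjusted p below 0.05, beside 3291 of 20185 genes. Without replicate 2 of *fc2 pub4* in cycling light 2 members were called there, *CYP79B2* (-1.03, padj = 0.0012) and *GGP1* (-0.69, padj = 0.0087), and the share of all genes in that fit was not taken.

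The light conditions were then compared within each genotype. In *fc2* 7 of 10 members were higher in cycling than in 24 h light (22.7% of 20168 genes higher, 44.1% in either direction), led by *PAD3* (log2FC 2.74 ± 0.18 SE), *CYP71A13* (2.21 ± 0.17 SE) and *CYP71A12* (1.68 ± 0.17 SE). *CYP79B2* (0.67 ± 0.14 SE), *ASA1* (0.52 ± 0.12 SE), *TSA1* (0.49 ± 0.08 SE) and *MYB51* (0.37 ± 0.09 SE) were higher by less, and the calls of *ASA1* and *MYB51* were kept in 1 and 2 of 6 fits without a library. In *fc2* 3 of 4 leaf genes and 1 of 7 floral genes were lower in cycling light, with leaf sums of 16881 to 21605 CPM in cycling light and 28704 to 34034 CPM in 24 h light, and their part was not tested. In wt 4 of 10 were lower in cycling light (16.1% of 19600 genes lower, 35.3% in either direction), and these calls held without any one library. *PAD3* had 10.05, 12.6 and 12.8 CPM in cycling light, against 22.9, 21.3 and 26.5 CPM in 24 h light in wt (log2FC -0.99 ± 0.12 SE, padj = 5.6e-05 by edgeR), with no overlap. *MYB51* (-0.75 ± 0.10 SE), *TSA1* (-0.59 ± 0.06 SE) and *ASA1* (-0.56 ± 0.08 SE) were the other 3. Without overlap of the wt libraries, 5 members were lower in cycling light, against 28.8% of all genes. In wt 1 of 4 leaf genes and 1 of 7 floral genes were higher in cycling light, with leaf sums of 42056 to 44990 CPM in cycling light and 31360 to 34583 CPM in 24 h light, and their part was not tested.

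In *fc2 pub4* too 4 of 10 were lower in cycling light (19.4% of 19839 genes lower, 40.1% in either direction), namely *CYP79B2* (log2FC -0.81 ± 0.19 SE), *ASA1* (-0.76 ± 0.15 SE), *TSA1* (-0.65 ± 0.13 SE) and *GGP1* (-0.49 ± 0.10 SE). The call of *CYP79B2* was kept without only 3 of the 6 libraries and lost by DESeq2 (padj = 0.022), which called *MYB51* in its place (padj = 8.7e-04). Of the leaf genes 3 of 4 were higher in the same comparison, with summed levels of 38043 to 39072 CPM in cycling light and 24280 to 28209 CPM in 24 h light, and their part was not tested. *PAD3* had 26.1, 45.3 and 26.9 CPM in cycling light, against 25.7, 49.6 and 33.1 CPM in 24 h light in the double mutant, and the libraries overlapped (log2FC -0.13 ± 0.24 SE, padj = 0.68 by edgeR). Without replicate 2 in cycling light *CYP79B3* and *MYB51* were lower as well (log2FC -0.90 and -0.79, padj = 5.6e-06 and 3.9e-04), which makes 6, whereas without replicate 1 in cycling light 1 member was called and without replicate 3 in 24 h light 2 were. Shares of all genes called in these fits were not taken.

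**Figure D3:**
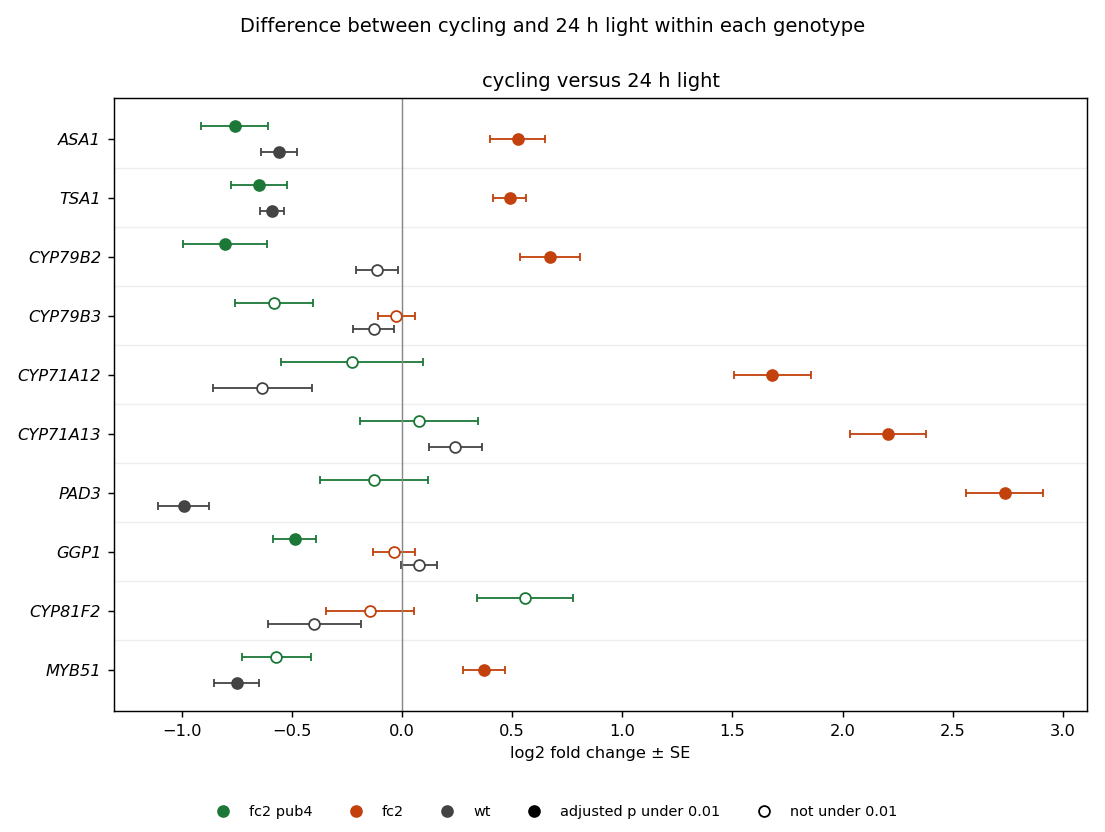
log2 fold change with its SE (edgeR) of the 10 members in cycling against 24 h light, within *fc2 pub4*, *fc2* and wt, with filled points where the adjusted p was under 0.01. For *PAD3* the value was -0.13 in *fc2 pub4*, 2.74 in *fc2* and -0.99 in wt, and *CYP79B3* was not called in any genotype.

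Genes with the most similar pattern over the 18 libraries were sought for 3 members among 17586 genes (Pearson correlation of log2 CPM, a description over libraries that share their groups). For *PAD3* they were *YLS5* (r = 0.98), AT3G54150 (0.98) and *GSTF7* (0.98). For *CYP79B2* they were *TIFY10B* (0.88), AT4G21910 (0.88) and *MEB1* (0.87). For *CYP81F2* the closest were AT5G20050 (0.82), AT4G15975 (0.79) and AT2G41060 (0.79). Among the members themselves, *PAD3* and *CYP71A12* had r = 0.95, and *PAD3* and *CYP79B3* r = -0.02.

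Around the 10 members stand 59 further genes of the same pathways, of which 58 were tested between *fc2* and wt in cycling light. There 27 were higher and 11 lower, with a median log2FC of 0.36, beside 21.8% and 21.0% of all genes. In 24 h light 0 of 57 were called by edgeR, with 16 at an unadjusted p below 0.05, beside 2992 of 19664 genes. DESeq2 called 1 higher and 3 lower, and its share of all genes was not taken. Of 57 tested in *fc2 pub4* against wt, both in cycling light, 16 were higher and 6 lower, beside 6.32% and 8.02% of all genes. Between *fc2 pub4* and *fc2* 8 were higher and 22 lower of 58, beside 17.4% and 19.0% of all genes. The lists below, whose counts for *fc2* against wt stand beside the same 21.8% higher and 21.0% lower of all genes, were drawn up with earlier results of these data known.

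Of 11 other tryptophan genes, 4 were higher and 1 lower in *fc2* than in wt in cycling light. *PAT1*, the phosphoribosyltransferase of the second step, had 132, 145 and 114 CPM in *fc2*, against 63.2, 57.9 and 59.9 CPM in wt (log2FC 1.12 ± 0.09 SE, padj = 1.2e-05 by edgeR). *IGPS*, which closes the indole ring, rose alike (1.04 ± 0.10 SE), as did *ASB1* (0.98 ± 0.07 SE), a beta subunit of anthranilate synthase of which 34.7% of 50-base stretches occur elsewhere in the genome. These genes stand beside *ASA1* and *TSA1* at the 2 ends of the same pathway. Between *fc2 pub4* and wt 1 of the 11 was higher, and between *fc2 pub4* and *fc2* 5 were lower and 1 higher.

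Of 9 tested genes of camalexin synthesis, its transport and related indole phytoalexins, 6 were higher in *fc2* than in wt in cycling light and none lower. *ABCG40*, an ABC transporter linked to camalexin export, had 228, 258 and 192 CPM in *fc2*, against 9.20, 17.0 and 8.28 CPM in wt (log2FC 4.33 ± 0.25 SE, padj = 3.0e-06 by edgeR). *GSTF6*, a glutathione transferase that acts on indole-3-acetonitrile, had 579, 623 and 533 CPM in *fc2*, against 73.8, 70.1 and 64.2 CPM in wt (3.07 ± 0.09 SE, padj = 3.1e-07). *AAO1*, an aldehyde oxidase that makes indole-3-carboxylic acid, had 142, 148 and 95.4 CPM in *fc2*, against 16.6, 15.8 and 16.2 CPM in wt (3.00 ± 0.16 SE, padj = 2.1e-06). None of these overlapped between the groups, and in cycling light *fc2 pub4* had less of all 3 than *fc2* did (log2FC -3.41, -1.59 and -1.89) and more than wt did (0.93, 1.49 and 1.12).

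The 9 genes listed as the glucosinolate core had 1 higher and 5 lower in *fc2* against wt (21.0% of all genes lower). In *fc2 pub4* against wt in cycling light 0 were higher and 5 lower (8.02% of all genes lower). Whether these genes serve indole glucosinolates alone was not tested. *GSTU13*, a glutathione transferase of indole glucosinolate metabolism, had 27.9, 31.6 and 31.0 CPM in *fc2*, against 50.4, 55.6 and 52.3 CPM in wt (log2FC -0.80 ± 0.07 SE, padj = 2.3e-05 by edgeR). *APK1*, which makes the precursor of the sulfate donor, and *UGT74B1*, the glucosyltransferase, were lower by 0.54 and 0.51 on the log2 scale in *fc2*, and their log2FC was -0.71 and -0.66 in *fc2 pub4* against wt. *GSTU13* was not called between *fc2 pub4* and wt (-0.06 ± 0.09 SE, padj = 0.63).

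Of 8 genes that modify the indole side chain beside *CYP81F2*, 5 were higher in *fc2* and none lower, although *CYP81F2* itself was not called. The largest was *CYP81F4*, which hydroxylates the ring nitrogen, at 2.14, 2.77 and 1.62 CPM in *fc2*, against 0.444, 0.249 and 0.550 CPM in wt (log2FC 2.35 ± 0.35 SE, padj = 3.9e-04 by edgeR), and an opposite-strand gene covers 88.2% of its exons. The methyltransferase genes *IGMT5* (1.496 ± 0.32 SE) and *IGMT1* (1.33 ± 0.23 SE) were also higher. All 3 were low, at no more than 3.78 CPM in *fc2* and 1.27 CPM in wt in cycling light.

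Of 8 myrosinase and nitrilase genes 4 were higher in *fc2* and 2 lower, the count of lower genes being near the 21.0% of all genes called lower. *NIT2*, a nitrilase that hydrolyses indole-3-acetonitrile, had 1886, 1558 and 783 CPM in *fc2*, against 24.7, 40.2 and 23.2 CPM in wt (log2FC 5.60 ± 0.37 SE, padj = 5.2e-06 by edgeR), and 71.2, 137 and 73.9 CPM in *fc2 pub4* in cycling light. *NIT4* (1.65 ± 0.16 SE) and the beta-glucosidase gene *PYK10* (1.32 ± 0.12 SE) were higher too, and *PYK10* was not called between *fc2 pub4*, with 81.6, 123 and 80.9 CPM, and *fc2*, with 74.7, 107 and 85.2 CPM (0.09 ± 0.18 SE, padj = 0.71). The 2 lower genes, named after their values were seen, were the classical leaf myrosinases *TGG1* (-0.99 ± 0.07 SE) and *TGG2* (-0.87 ± 0.08 SE). Of 2 glucosinolate transporters *GTR2* was higher (0.91 ± 0.13 SE) and *GTR1* was not called.

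Of 11 regulators 6 were higher and 3 lower in *fc2* than in wt in cycling light, beside 21.8% and 21.0% of all genes. *WRKY33*, a known activator of *PAD3*, had 216, 203 and 206 CPM in *fc2*, against 74.3, 83.5 and 64.9 CPM in wt (log2FC 1.502 ± 0.09 SE, padj = 3.5e-06 by edgeR), and 155, 167 and 146 CPM in *fc2 pub4* (1.08 ± 0.08 SE against wt, padj = 2.9e-06; -0.43 ± 0.07 SE against *fc2*, padj = 7.3e-04). *ANAC042*, a NAC factor of camalexin induction, had 18.5, 16.7 and 16.3 CPM in *fc2*, against 1.77, 2.41 and 2.201 CPM in wt (3.02 ± 0.13 SE, padj = 1.1e-06), and 4.97, 3.82 and 4.73 CPM in *fc2 pub4*. The genotypes were ordered *fc2*, *fc2 pub4* and wt for both genes, with no overlap.

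Of the relatives of *MYB51* in the same MYB subgroup, one was lower and one higher in *fc2*. *MYB34* had 20.0, 21.4 and 23.5 CPM in *fc2* in cycling light, against 32.9, 40.8 and 40.1 CPM in wt (log2FC -0.80 ± 0.10 SE, padj = 1.3e-04 by edgeR), and 39.7, 40.3 and 38.6 CPM in *fc2 pub4*, not called against wt (padj = 0.59). *MYB122* had 45, 26 and 15 counts in *fc2*, against 0, 0 and 0 counts in wt, so that its mean of 0.741 CPM was at least 5.95-fold higher against a floor of 3 counts per library. In *fc2 pub4* it had 3, 2 and 4 counts in cycling light and was not tested against wt. Floors cover counting error only.

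**Figure D4:**
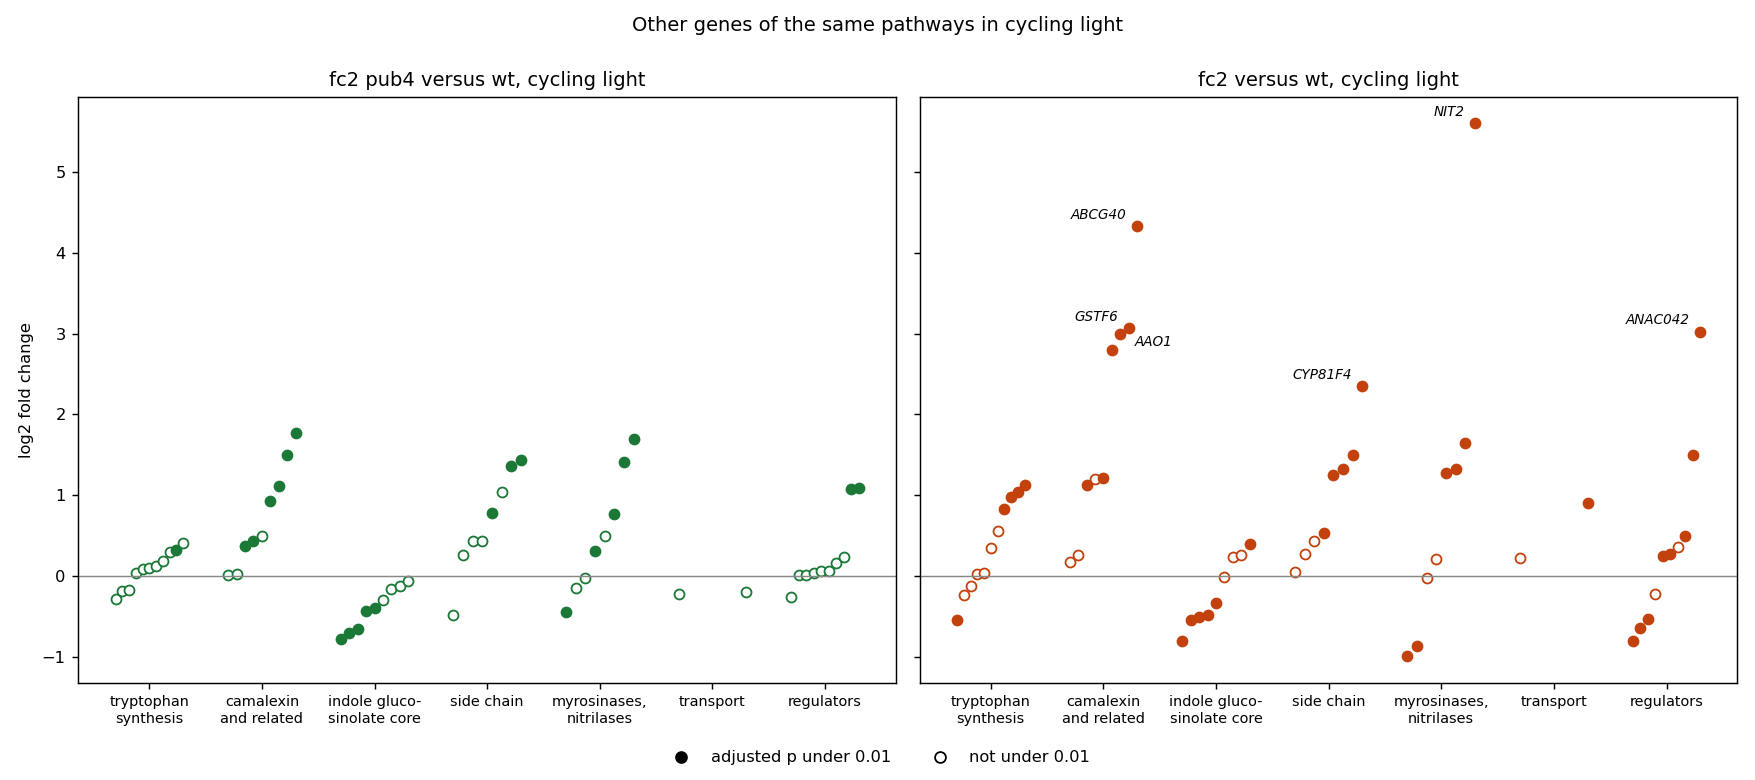
log2 fold change (edgeR) of the other tested pathway genes in cycling light, by group, for *fc2 pub4* against wt (left) and *fc2* against wt (right), with filled points where the adjusted p was under 0.01; *MYB122* is left out because its wt libraries were at 0. *NIT2* reached 5.60 in *fc2* and 1.70 in *fc2 pub4*, while genes listed as the glucosinolate core lay mostly below 0 in both.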

How the data were processed

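The deposited table held whole-number read counts for 33602 loci in 18 libraries. The authors made these counts from single-end reads of 50 bases (TruSeq Stranded mRNA), aligned to TAIR10 with HISAT2 2.1.0, and the submitters' processing notes also name StringTie 1.3.4 and DESeq2. How reads of overlapping genes and multiply mapping reads were counted is not given in the sources used here. Totals were 26994499 to 39382316 counts per library.

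Groups came from the sample labels (3 libraries in each of 6 groups). Genes were filtered with filterByExpr, scaled by TMM and tested with the quasi-likelihood test of edgeR 4.0.16 in R 4.3.3 on the 6 libraries of each comparison (12 for interactions), with Benjamini-Hochberg adjustment over all genes tested and a threshold of 0.01. The SE was taken from the log2FC and its F statistic. Replicate numbers were not used to pair libraries in the main fits, as no comparison had all 3 same-numbered pairs correlated above 0.1. Same-numbered pairs had r of 0.0785 to 0.196 for cycling against 24 h light in *fc2*. For *fc2 pub4* against wt in 24 h light they had 0.0479 to 0.0761, where all other pairs were negative. Whether libraries were grown as pairs was not tested further. Alternatives were DESeq2 1.42.0, other scalings and filters, a fit on all 18 libraries, a replicate block, a threshold of 0.05 and leaving out each library.

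Named were the 10 members, *FC2*, *PUB4*, up to 3 called genes of largest log2FC in size per wider list, *WRKY33*, *ANAC042*, *MYB34* and *MYB122*, and the 3 genes most like each of 3 members (mean count of at least 50). Members and lists were chosen with earlier results of these data known. Gene positions and sequences are from RefSeq TAIR10.1, and 50-base stretches were matched to that genome.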

Additional observations from a re-analysis of the deposited data

Results flagged for a closer look

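The difference of a genotype effect between the light conditions was called in 14 cases, each by the interaction term of edgeR over 12 libraries. The effect of *fc2* against wt was larger in cycling than in 24 h light by a log2 difference of 3.75 for *PAD3* (padj = 2.8e-07), 2.33 for *CYP71A12* (padj = 3.7e-05), 1.98 for *CYP71A13* (padj = 1.8e-05), 1.14 for *MYB51* (padj = 2.9e-05), 1.11 for *ASA1* (padj = 1.0e-04), 1.099 for *TSA1* (padj = 1.5e-06) and 0.81 for *CYP79B2* (padj = 0.0029). The effect of *fc2 pub4* against *fc2* differed between cycling and 24 h light by -2.88 for *PAD3* (padj = 2.2e-05), -2.15 for *CYP71A13* (padj = 3.8e-04), -1.93 for *CYP71A12* (padj = 0.0023), -1.496 for *CYP79B2* (padj = 5.2e-04), -1.31 for *ASA1* (padj = 3.4e-04), -1.16 for *TSA1* (padj = 7.6e-05) and -0.96 for *MYB51* (padj = 0.0017). Both sets of 7 share the 6 *fc2* libraries.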

How the results depend on the processing

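The 7 members called between *fc2* and wt in cycling light, and the 7 called in each of the interactions of *fc2* with wt and of *fc2 pub4* with *fc2*, kept their calls without any one library. Counts that moved by over 1.5 times were those of the double mutant. Of 10 members, *fc2 pub4* against wt in cycling light gave 2 by DESeq2 and 2 to 6 without a library. In 24 h light *fc2 pub4* against wt gave 3 by DESeq2, 0 in the fit on all 18 libraries, 2 at a threshold of 0.05 and 0 to 1 without a library. In 24 h light *fc2 pub4* against *fc2* gave 2 with library size alone, 4 by DESeq2, 0 in the fit on all 18 libraries, 3 at a threshold of 0.05, 0 to 1 without a library and 0 with the replicate block. The block moved the genes called there to 77 of all genes, against 295 without it, and to 385, against 151, for *fc2 pub4* against wt in 24 h light. In cycling light *fc2 pub4* against *fc2* gave 4 to 8 without a library (4 without *fc2* replicate 2 or *fc2 pub4* replicate 1). Cycling against 24 h light in *fc2 pub4* gave 1 to 6 without a library, and its interaction with wt gave 1 by DESeq2 and 0 to 2 without a library. Apart from the block, shares of all genes called under these alternatives, DESeq2 and the threshold of 0.05 included, were not taken. The cause of these shifts was not tested. No single-gene value changed sign while called, and 46 uncalled values had the other sign under some alternative. Library size alone moved the median log2FC of all genes by at most 0.23 in size (*fc2* against wt, cycling light). Depth limits *CYP71A12* (63 to 813 counts per library) and *CYP81F2* (75 to 259) most.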

Other observations

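In 24 h light 3 of the 57 further pathway genes tested were called higher in *fc2 pub4* than in *fc2* by edgeR and none lower, beside 0.897% of all genes higher and 1.49% in either direction. The 3 were *AAO1* (log2FC 0.84, padj = 5.7e-04), *IGMT5* (1.497, padj = 0.0063) and *PYK10* (1.61, padj = 6.6e-04, all by edgeR). DESeq2 called 11 higher and 2 lower, and its share of all genes was not taken. Against wt in 24 h light the double mutant had *AAO1* higher (0.69, padj = 0.0034) and *TGG2*, named after its values were seen, lower (-0.64, padj = 0.0052). Among the members, *TSA1* and *MYB51* had the highest correlation of log2 CPM over the 18 libraries (r = 0.96), and *CYP79B3* and *GGP1* had r = 0.85, as a description over libraries that share their groups. The ratio of *CYP71A13* to *CYP71A12* was 3.37 ± 0.58 in *fc2 pub4*, 4.10 ± 0.87 in *fc2* and 7.13 ± 2.07 in wt in cycling light (SD, n = 3 each; two-sided exact permutation p = 0.4 between *fc2 pub4* and *fc2*). In 24 h light it was 2.54 ± 0.16, 2.81 ± 0.14 and 3.78 ± 0.59 in the same order. *MYB122* had 8, 4 and 14 counts in *fc2 pub4* in 24 h light, against 0, 0 and 6 counts in *fc2* and 2, 0 and 1 counts in wt in 24 h light.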
